A study of Mus musculus with 2 samples.

Results

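A set of 10 immediate early response genes was followed in sorted endothelial cells (EC): Jun, Junb, Jund, Fos, Egr1, Ier2, Zfp36, Klf6, Btg2 and Dusp1. They were chosen by name as a gene family, not by a threshold on the measured values, although earlier results of these data were known when they were picked. All 10 had an entry among the 12684 genes of the deposited table. The EC came from the aorta-gonad-mesonephros (AGM) region of E10.5 mouse embryos, where the endothelium gives rise to hematopoietic stem cells. GFP-depleted EC were the GFP-negative, CD31+CD117-CD45- cells of embryos carrying the Runx1+23GFP transgene, a reporter driven by an enhancer of Runx1. Bulk EC were sorted from wild-type (WT) littermates and were not gated on GFP. The methods of the study give the surface gate for the transgenic embryos only, so a shared surface gate cannot be taken as given. Both groups shared the stage and the region, and differed in the transgene and in the GFP gate. The account of this sort is not uniform: the results text of the study names a GFP-positive population, but the GEO labels and the methods name the GFP-negative gate, which was followed here. If the library labelled GFP-depleted EC held GFP-positive cells, every ratio would describe those cells instead. Each group had 1 library made from SMART-amplified cDNA. Differences have no replicate check, no test was possible, and the values compare 2 libraries rather than 2 conditions.

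Immediate early genes are transcribed within minutes of a stimulus, without new protein synthesis, because the factors that switch them on are already bound or ready in the nucleus. Growth factors, shear stress, tissue dissociation and heat all act on them through MAP kinases, which activate ternary complex factors bound with serum response factor (SRF) at CArG boxes and CREB at cyclic AMP response elements (CRE). Their transcripts are short-lived. Jun, Junb, Jund and Fos encode subunits of the AP-1 transcription factor, Egr1 and Klf6 encode zinc finger transcription factors, and Ier2 encodes a small nuclear protein. Zfp36, Btg2 and Dusp1 encode products that limit the response: a protein that promotes decay of AU-rich mRNAs, an antiproliferative protein that recruits the deadenylation machinery, and a phosphatase of MAP kinases.

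The promoter windows of the members with the largest differences and of their relatives are shown so that the motifs marked, and the windows without them, can be read in place. RefSeq windows of 300 bases, from 250 before to 50 after the listed start, were matched by symbol for 8 of 10 members, and Egr1 and Ier2 are named only. Coordinates of these windows are those of GRCm38.p6, whereas all other coordinates are those of mm9. Capitals mark the CRE half-site TGACG on either strand, which includes the full CRE TGACGTCA, the AP-1 site TGACTCA on either strand, and the CArG box. The windows of Jun and Jund hold no capitals. Junb, Zfp36, Jun and Jund were chosen for their differences or their family, and Btg2 and Dusp1 were added after their values were seen, as members with small differences.
Junb, chr8:84978699-84978998, minus strand: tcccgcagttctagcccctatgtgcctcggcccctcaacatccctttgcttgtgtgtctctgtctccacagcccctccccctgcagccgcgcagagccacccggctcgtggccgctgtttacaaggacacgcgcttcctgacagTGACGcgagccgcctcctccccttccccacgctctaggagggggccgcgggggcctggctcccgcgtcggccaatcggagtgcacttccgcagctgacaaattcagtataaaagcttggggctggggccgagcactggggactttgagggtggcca
Zfp36, chr7:28379179-28379478, minus strand: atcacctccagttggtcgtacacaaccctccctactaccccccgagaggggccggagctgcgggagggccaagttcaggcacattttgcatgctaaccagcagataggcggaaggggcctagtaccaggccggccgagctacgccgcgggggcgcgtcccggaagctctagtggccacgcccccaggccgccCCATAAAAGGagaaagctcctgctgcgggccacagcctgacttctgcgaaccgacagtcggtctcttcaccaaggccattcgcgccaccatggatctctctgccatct
Jun, chr4:95052173-95052472, minus strand: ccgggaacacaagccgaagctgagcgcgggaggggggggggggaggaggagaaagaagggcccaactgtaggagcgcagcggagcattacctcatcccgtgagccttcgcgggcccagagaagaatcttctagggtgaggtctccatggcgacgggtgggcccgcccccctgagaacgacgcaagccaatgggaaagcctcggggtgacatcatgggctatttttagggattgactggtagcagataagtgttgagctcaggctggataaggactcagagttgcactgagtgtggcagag
Jund, chr8:70697489-70697788, plus strand: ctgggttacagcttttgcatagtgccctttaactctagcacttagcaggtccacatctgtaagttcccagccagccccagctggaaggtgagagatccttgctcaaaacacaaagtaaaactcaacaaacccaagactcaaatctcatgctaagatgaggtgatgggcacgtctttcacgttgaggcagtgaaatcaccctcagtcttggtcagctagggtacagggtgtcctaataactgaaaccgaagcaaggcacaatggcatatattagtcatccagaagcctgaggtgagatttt
Btg2, chr1:134079106-134079405, minus strand: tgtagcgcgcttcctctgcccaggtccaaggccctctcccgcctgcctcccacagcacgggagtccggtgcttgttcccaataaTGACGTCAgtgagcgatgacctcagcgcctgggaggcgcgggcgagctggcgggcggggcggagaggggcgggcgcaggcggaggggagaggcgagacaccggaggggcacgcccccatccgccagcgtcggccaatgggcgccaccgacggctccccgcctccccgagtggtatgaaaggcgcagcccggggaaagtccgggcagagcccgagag
Dusp1, chr17:26508423-26508722, minus strand: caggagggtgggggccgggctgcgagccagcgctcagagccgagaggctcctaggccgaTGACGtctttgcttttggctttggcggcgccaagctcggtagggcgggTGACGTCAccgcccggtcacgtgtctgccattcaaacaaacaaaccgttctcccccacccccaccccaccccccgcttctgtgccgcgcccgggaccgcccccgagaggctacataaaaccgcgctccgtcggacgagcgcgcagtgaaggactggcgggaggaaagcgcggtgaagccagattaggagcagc
The full CRE was found in the windows of Btg2 and Dusp1 and in 1.79% of 32851 windows of the same length. The half-site was found in the windows of Junb, Fos, Btg2 and Dusp1 and in 20.8% of all windows. A CArG box was found in the window of Zfp36 alone among the 8 members, and in 1.63% of all windows. The AP-1 site was in none of the 8, against 5.20% of all windows. The GC box GGGCGG, searched on both strands, was in 6 of 8, against 35.7% of all windows. The Egr site GCGNGGGCG, also searched on both strands, was in 2 of 8, Btg2 and Zfp36, against 5.55% of all windows. The GC content of the windows ran from 46.7% (Jund) to 72.0% (Btg2), and the shares of all windows were not matched for it. A match is a run of letters and not a measured binding site, and sites outside these windows were not searched.

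The values were RPKM, reads scaled for library depth and gene model length, so that levels of different genes can be compared per length. Depth recovered from the steps between low values was about 14600000 reads for the GFP-depleted library, against 109800000 for the bulk library, a difference of 7.50 fold. Intervals beside folds are exact 95% intervals on the approximate read numbers and cover counting error only, since amplified reads are not independent molecules. All 10 endothelial markers were listed, and their summed level was 1909 RPKM in GFP-depleted EC and 2141 RPKM in bulk EC. Pecam1, which encodes the CD31 of the gate, was at 153.9 RPKM in GFP-depleted EC and 154.5 RPKM in bulk EC.

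Of the 10 immediate early genes, 7 were lower in GFP-depleted EC than in bulk EC by more than 1.5 fold, and none was higher by that margin. These 7 were all 4 AP-1 genes, Egr1, Ier2 and Zfp36. Klf6, Btg2 and Dusp1 were within 1.5 fold. Among all 12684 genes, 23.6% were lower in GFP-depleted EC by that margin and 15.3% were higher. The median log2 ratio of the members, GFP-depleted EC over bulk EC with 0.3 RPKM added to both values, was -1.15, and the median of all genes was -0.02. Summed over the 10 members, the level was 209.7 RPKM in GFP-depleted EC and 352.9 RPKM in bulk EC. In bulk material, fewer cells that express a gene and less RNA per cell cannot be told apart.

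**Figure D1:**
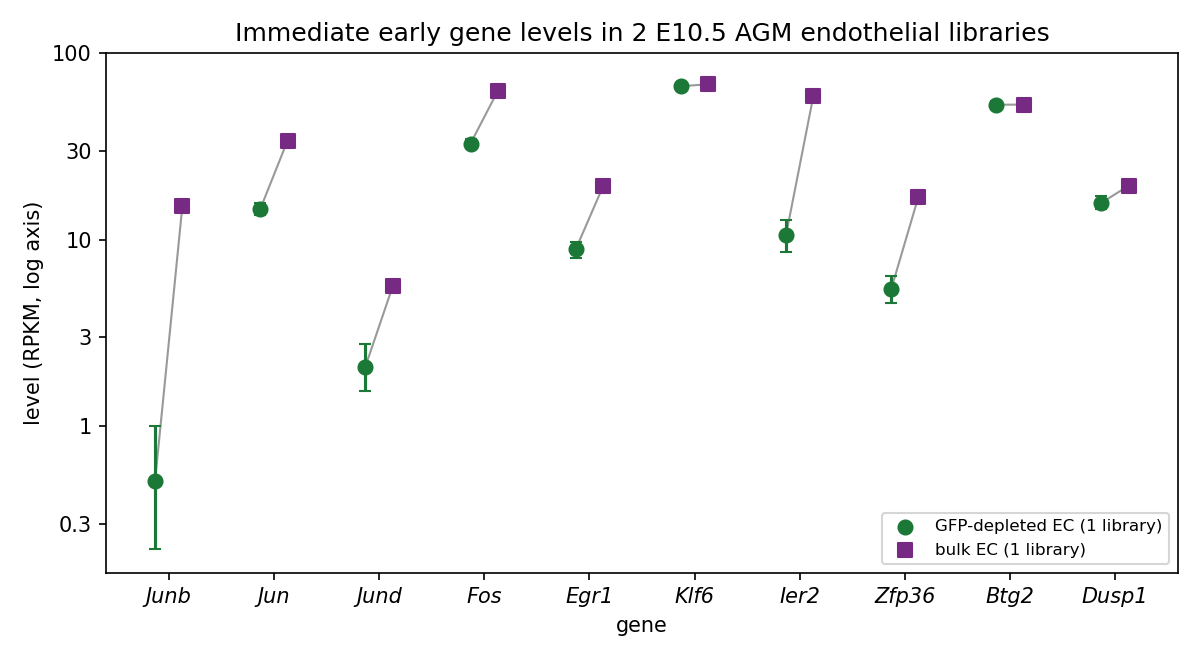
Level of each member in RPKM on a log axis, with GFP-depleted EC as green circles and bulk EC as purple squares, 1 library each. Bars are exact 95% counting intervals, and they are hidden by the points where they are narrow. Junb spans the widest distance, at 0.51 RPKM in GFP-depleted EC and 15.2 RPKM in bulk EC, while the points of Klf6 and of Btg2 lie level.

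Junb, whose product pairs with Fos proteins in AP-1, showed the largest difference of the 10. Its level was 0.51 RPKM in GFP-depleted EC and 15.2 RPKM in bulk EC, a 29.8-fold lower value (interval 14.6 to 66.7). These levels stood on about 8 reads in the GFP-depleted library, against 1726 in the bulk library, so the direction is far outside counting error while the size of the fold is loosely set. Ranked by log2 ratio with 0.3 RPKM added, Junb (-4.26) was the 4th lowest of all 12684 genes. It was also the 4th lowest of the 7997 genes of at least 5 RPKM in at least 1 library. The rank depends on the added value. By plain ratio Krt8 was 75.9-fold lower, at 0.04 RPKM in GFP-depleted EC and 2.92 RPKM in bulk EC, and 58 genes were at 0 in GFP-depleted EC. The level of Junb was above that of only 4.25% of genes in GFP-depleted EC, against 63.4% in bulk EC. Junb lies on chromosome 8, minus strand, 87501294 to 87502328 in the deposited table, and has no intron.

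Jun, the founding AP-1 subunit, had 14.6 RPKM in GFP-depleted EC and 33.9 RPKM in bulk EC. The level was 2.33-fold lower (interval 2.15 to 2.52) on about 680 reads for GFP-depleted EC, against 11872 for bulk EC. Jun lies on chromosome 4, minus strand, 94715725 to 94718913. Jund, the family member least tied to stimulation in most cells, had 2.09 RPKM in GFP-depleted EC and 5.63 RPKM in bulk EC, and was 2.69-fold lower (interval 2.03 to 3.64). Only Junb was below it in GFP-depleted EC, and no other member was below it in bulk EC. Jund lies on chromosome 8, 73222848 to 73224514.

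The 3 Jun genes summed to 17.2 RPKM in GFP-depleted EC and 54.7 RPKM in bulk EC, and their shares of that sum differed as well. Junb made up 2.97% of the Jun family in GFP-depleted EC against 27.8% in bulk EC. Jun made up 84.9% in GFP-depleted EC, against 62.0% in bulk EC. Jund made up 12.2% in GFP-depleted EC, against 10.3% in bulk EC. At the RNA level, Jun was thus the main Jun gene of both libraries, and Junb was the gene whose share differed most.

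Fos, the partner of the Jun proteins, had 32.7 RPKM in GFP-depleted EC and 62.7 RPKM in bulk EC. It was 1.92-fold lower (interval 1.80 to 2.04), the smallest difference among the 7 genes past 1.5 fold. Fos lies on chromosome 12, 86814840 to 86818223. Fos RNA was 1.91 times the summed Jun family in GFP-depleted EC and 1.15 times in bulk EC. Against Jun alone, the ratio was 2.25 in GFP-depleted EC against 1.85 in bulk EC.

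Egr1, an early zinc finger factor induced through SRF, had 8.87 RPKM in GFP-depleted EC and 19.3 RPKM in bulk EC. The level was 2.18-fold lower (interval 1.97 to 2.42), close to the fold of Jun, whose interval overlaps it. Klf6, a Krüppel-like factor present in resting endothelium, did not share this difference. It had 66.4 RPKM in GFP-depleted EC and 68.0 RPKM in bulk EC, a 1.02-fold lower value whose interval, 0.99 to 1.06, spans 1. Klf6 was the highest of the 10 members in both libraries and lies on chromosome 13, 5860735 to 5869639, with 3 introns.

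Ier2 had the next largest difference after Junb. Its level was 10.6 RPKM in GFP-depleted EC and 58.7 RPKM in bulk EC, 5.55-fold lower (interval 4.57 to 6.82) on about 103 reads for GFP-depleted EC, against 4293 for bulk EC. Its place in the order of levels differed too. In GFP-depleted EC Ier2 was the 6th highest member, with an interval that overlapped that of Egr1, and in bulk EC it was the 3rd, above Btg2. Ier2 lies on chromosome 8, minus strand, 87185985 to 87186650, and has no intron.

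The members whose products act against the response did not share 1 difference. Zfp36 had 5.42 RPKM in GFP-depleted EC and 17.0 RPKM in bulk EC, 3.14-fold lower (interval 2.65 to 3.75). Dusp1 had 15.8 RPKM in GFP-depleted EC and 19.5 RPKM in bulk EC, 1.24-fold lower (interval 1.14 to 1.35), a difference beyond counting error but within 1.5 fold. Btg2 had 52.8 RPKM in GFP-depleted EC and 52.9 RPKM in bulk EC, and the interval of its fold, 0.96 to 1.05, spans 1.

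Zfp36 lies on chromosome 7 (29161803 to 29164247), Dusp1 on chromosome 17 (26642542 to 26645419) and Btg2 on chromosome 1 (135971442 to 135975732). Within its own family, Zfp36 made up 7.47% of the summed RPKM of Zfp36, Zfp36l1 and Zfp36l2 in GFP-depleted EC against 14.7% in bulk EC. Btg2 made up 48.8% of the summed Btg family in GFP-depleted EC, against 45.4% in bulk EC.

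**Figure D2:**
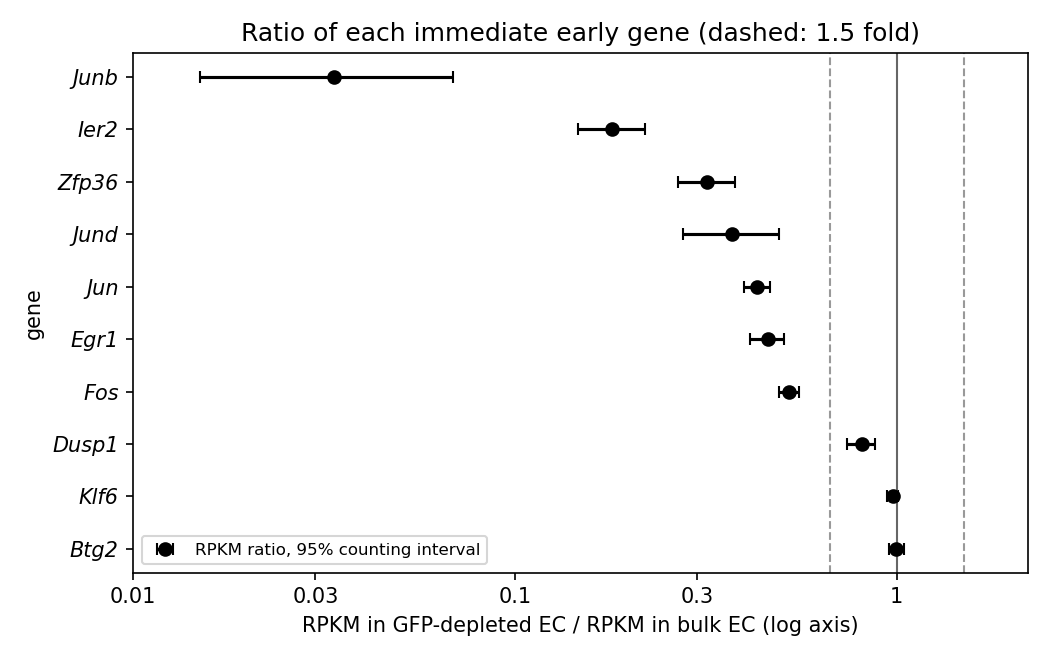
RPKM in GFP-depleted EC divided by RPKM in bulk EC for each member, on a log axis, with exact 95% counting intervals. The dashed lines mark 1.5 fold in each direction. The intervals of 7 members lie wholly below the lower dashed line, and those of Dusp1, Klf6 and Btg2 lie between the lines.

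The 7 lower members had intervals wholly past 1.5 fold. For 5 of them, Junb, Ier2, Zfp36, Jund and Jun, the interval lay wholly past 2 fold. Without Klf6, Btg2 and Dusp1, the other 7 members summed to 74.8 RPKM in GFP-depleted EC and 212.5 RPKM in bulk EC. Klf6 and Btg2 together carried 56.8% of the summed level of the 10 in GFP-depleted EC against 34.3% in bulk EC.

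Ordered by level, GFP-depleted EC had Klf6, Btg2, Fos, Dusp1, Jun, Ier2, Egr1, Zfp36, Jund and Junb, high to low. In bulk EC the order was Klf6, Fos, Ier2, Btg2, Jun, Dusp1, Egr1, Zfp36, Junb and Jund. Neighbors whose counting intervals overlapped were Dusp1 and Jun, and Ier2 and Egr1, in GFP-depleted EC, and Dusp1 and Egr1 in bulk EC.

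The log2 ratio moved with base composition, both in the whole table and among the members. Over 10845 protein-coding genes, the Spearman correlation of the log2 ratio with exonic GC content was -0.38, across genes that share the same 2 libraries. When genes were split by GC content into 10 groups of like size, in the last group the median log2 ratio was -0.66, and 57.1% were lower by more than 1.5 fold. Across the 10 members, Pearson's r with GC content was -0.77 and Spearman's rho -0.88, and leaving out Junb left them at -0.77 and -0.88. The same ratios also moved with the number of introns (r 0.71, rho 0.75) and log2 exonic length (r 0.71, rho 0.58). With log2 mean RPKM, r was 0.50 and rho 0.68. In 10 genes these properties cannot be told apart. Klf6 had the lowest GC content (42.4%), Btg2 the next lowest (49.7%), and Jund and Junb the highest (62.7% each). The part of base composition in the difference was not tested beyond subtracting the trend.

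After the trend over GC content was subtracted, the median log2 ratio of the members was -0.86, and that of all genes was 0.01. Junb (-3.34), Ier2 (-1.64), Zfp36 (-1.43), Egr1 (-0.94), Jun (-0.87) and Fos (-0.84) were still lower by more than 1.5 fold. Jund was not, since its log2 ratio was -0.39 after the correction and -1.31 before it. Of the 12144 genes with a GC value, 17.7% were lower and 14.5% higher by more than 1.5 fold after the same correction. It left 6 of the 10 members lower and none higher. These calls used the log2 ratio with 0.3 RPKM added, whereas the calls before the correction used the plain ratio. The shares before and after thus differ in more than the GC trend.

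**Figure D3:**
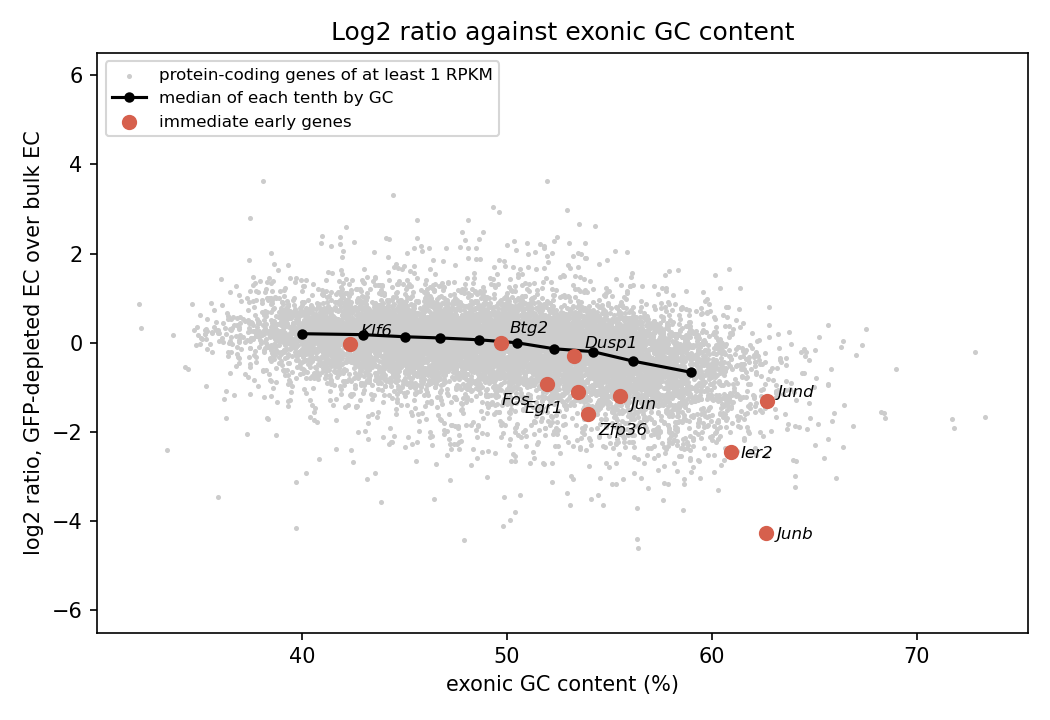
Log2 ratio of GFP-depleted EC over bulk EC against exonic GC content in percent, for protein-coding genes of at least 1 RPKM in at least 1 library (gray) and the 10 members (red). The black line joins the medians of 10 groups of like size by GC content and ends at -0.66. Junb (-4.26) and Ier2 (-2.44) lie far below the line, and Jund (-1.31) lies nearer to it.

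Gene structure was not used to choose the members. They had at most 3 introns, with a median of 1, against a median of 8 in all genes with an annotation. The number for each gene is the most in any annotated transcript. Jun and Jund, with 1 each, had 1 unbroken block of exonic sequence, as did Junb and Ier2. The median exonic length of the 10 members was 2720 bases, against 3584, and 9 of 10 were shorter than that, the exception being Klf6 (4217 bases). The deposited models of Junb and Ier2, the members with the largest differences, run from start codon to stop codon and hold no untranslated region (UTR). Their ends are shown in mm9, read on the minus strand, with the start and stop codons in capitals.
Junb, first 24 bases: ATGtgcacgaaaatggaacagcct
Junb, last 24 bases: ggggtcaagggacacgccttcTGA
Ier2, first 24 bases: ATGgaagtacagaaagaagcgcag
Ier2, last 24 bases: gtgcgagctgtggtggccttcTGA
The Junb model spans 1035 bases, against 1807 exonic bases in GENCODE, and the Ier2 model 666 against 1522. Whether reads of their UTRs were counted is not given in the labels or methods. Of 142 genes whose models held no UTR, 36.6% were lower in GFP-depleted EC by more than 1.5 fold and 21.8% were higher (median log2 ratio -0.22), against 23.6% and 12.5% of 11064 genes with some UTR (median -0.03). None of those 142 genes had a lower log2 ratio than Junb, and 4 had a lower one than Ier2. Among 376 genes of at least 60% GC, which include Junb, Ier2 and Jund, none was below Junb and 15 were below Ier2.

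Junb and Ier2 are 314.6 kb apart on chromosome 8, and no listed gene between them reached the log2 ratio of either. Of 12 listed genes in that interval, 3 were lower in GFP-depleted EC by more than 1.5 fold and none was higher (median log2 ratio -0.17), and the lowest ratio was that of Trmt1 (-1.33). Prdx2, a peroxiredoxin gene 2.56 kb from Junb, had 677.4 RPKM in GFP-depleted EC and 685.5 RPKM in bulk EC. Calr, the calreticulin gene, had 119.4 RPKM in GFP-depleted EC and 120.2 RPKM in bulk EC. Over the nearest listed gene on each side of every member, 20 genes in all, 8 were lower and 3 higher by more than 1.5 fold (median log2 ratio -0.07). By that margin, 23.6% of all genes were lower and 15.3% higher. Plekhg2, next to Zfp36, was lower (4.95 RPKM in GFP-depleted EC and 11.9 RPKM in bulk EC), and Mysm1, next to Jun, was higher (16.7 RPKM in GFP-depleted EC and 8.47 RPKM in bulk EC).

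Beyond the 10 members, 28 of 36 other primary response genes had an entry. Of these, 13 were lower in GFP-depleted EC by more than 1.5 fold and 1 was higher (median log2 ratio -0.47). The shares of all genes were 23.6% lower and 15.3% higher. The largest difference was in Gadd45g, a stress-responsive gene, with 9.51 RPKM in GFP-depleted EC and 95.8 RPKM in bulk EC (10.1-fold lower). Socs3, a feedback inhibitor of cytokine signaling, had 1.83 RPKM in GFP-depleted EC, against 10.4 RPKM in bulk EC, and Axud1 had 0.98 RPKM in GFP-depleted EC, against 4.58 RPKM in bulk EC. Of 11 bZIP partners of AP-1, 5 were lower and 1 was higher (median -0.50), and Atf3, which dimerizes with Jun proteins, was at 35.3 RPKM in GFP-depleted EC and 85.4 RPKM in bulk EC. The gene lists overlap, and some genes, Atf3 among them, were counted in more than 1 list. Among 10 heat shock genes, 6 were lower and none was higher (median -0.74). Hspa1a was at 0.23 RPKM in GFP-depleted EC and 3.13 RPKM in bulk EC, a value that is uncertain because the gene has a near-identical copy, Hspa1b.

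Genes that act upstream of the members, or alongside them, gave counts by the same 1.5-fold rule. These counts are to be read beside the shares of all genes, 23.6% lower and 15.3% higher. Of 14 genes for SRF, CREB and their cofactors, 2 were lower and 5 higher (median 0.24). Elk1, a ternary complex factor at CArG boxes, was 4.33-fold lower in GFP-depleted EC, at 1.15 RPKM against 4.98 RPKM in bulk EC, and Elk4, its relative, was higher, at 4.83 RPKM in GFP-depleted EC against 1.76 RPKM in bulk EC. Of 24 genes of the MAP kinase cascade, 8 were lower and 2 higher (median -0.06), and Mapk7 (ERK5) was 3.70-fold lower. Of 7 MAP kinase phosphatases other than Dusp1, 4 were lower and none higher (median -0.70). Relatives of Zfp36 and the deadenylation machinery had 2 lower and none higher of 17 (median -0.09), and Cnot3, a subunit of the CCR4-NOT deadenylase, was 3.53-fold lower. Klf factors other than Klf6 had 3 lower and none higher of 11 (median -0.40), with Klf13 at 2.68-fold lower. The 15 housekeeping genes had none in either direction (median 0.16). Among them, Gapdh was at 2.68 RPKM in GFP-depleted EC and 2.19 RPKM in bulk EC, and Ppia at 5.20 and 5.19 RPKM. Actb was at 6807 and 5080 RPKM, so the low entries of Gapdh and Ppia are uncertain. After the GC trend was subtracted, the medians were -0.14 for the other primary response genes, -0.21 for the bZIP partners, -0.24 for the phosphatases and -0.39 for the heat shock genes. The counts past 1.5 fold were then 9 lower and 3 higher of 27 other primary response genes, 3 lower and none higher of 11 bZIP partners, and 2 lower and none higher of 9 heat shock genes, Hsph1 and Hspe1. They were 2 lower of 7 phosphatases, 6 lower and 1 higher of 24 MAP kinase cascade genes, 2 lower and 3 higher of 13 SRF and CREB genes, and 3 lower and 1 higher of 11 Klf factors. Of 14 housekeeping genes, none was then lower and 1 was higher, and 2 of 17 Zfp36 relatives and deadenylation genes were lower. The shares of all genes with a GC value were then 17.7% lower and 14.5% higher.

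**Figure D4:**
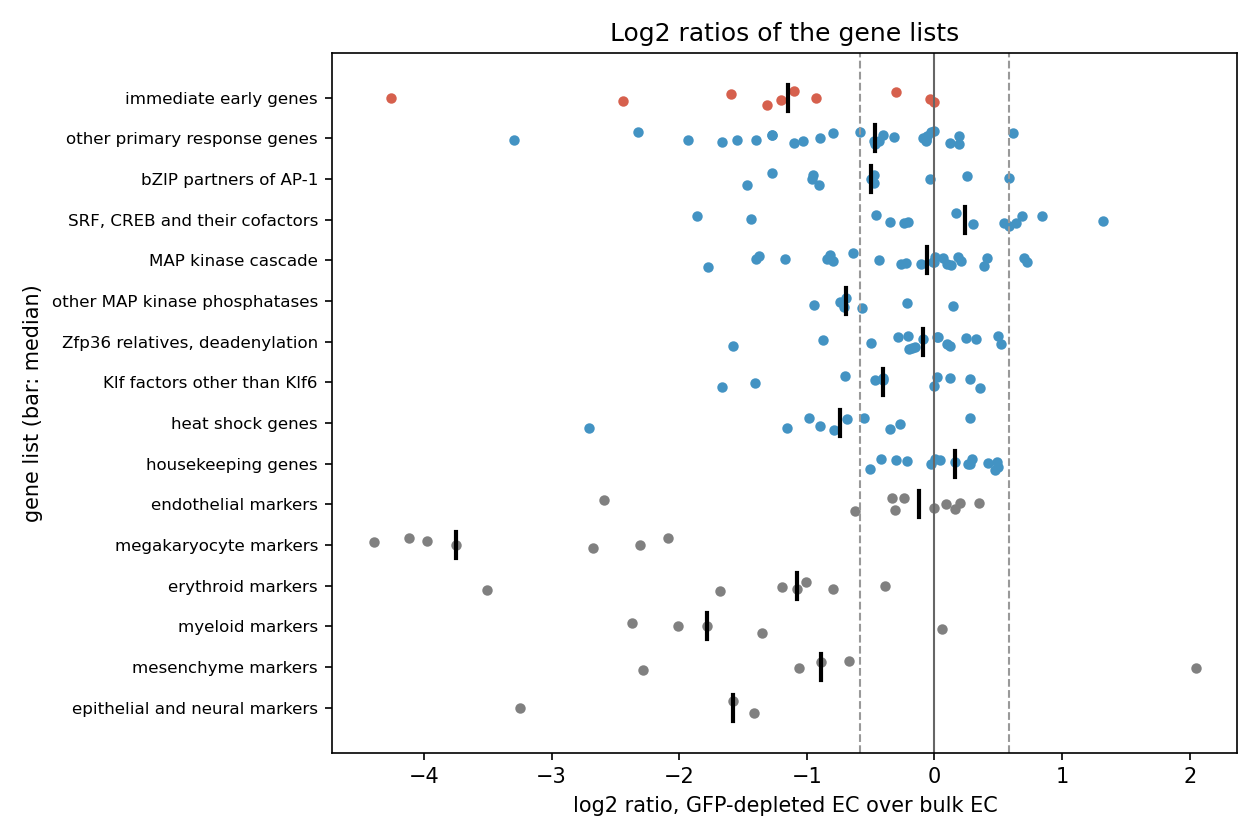
Log2 ratio of GFP-depleted EC over bulk EC for the members of each gene list and marker list, 1 point per gene, with black bars for medians and dashed lines at 1.5 fold. The immediate early genes (red) have a median of -1.15, housekeeping genes of 0.16 and megakaryocyte markers of -3.75.

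Markers of blood cells were lower in GFP-depleted EC together with the 7 members. By more than 1.5 fold, 23.6% of all genes were lower and 15.3% higher. All 7 listed megakaryocyte markers of 8 were lower in GFP-depleted EC by more than 1.5 fold, with a summed level of 87.4 RPKM in GFP-depleted EC against 1245 RPKM in bulk EC, and Gp6 was listed at 0 in GFP-depleted EC. For erythroid markers 7 of 8 had an entry and 6 of these were lower, with sums of 505.3 RPKM in GFP-depleted EC and 927.9 RPKM in bulk EC. For myeloid markers 5 of 9 had an entry, while Ptprc, which encodes CD45, Csf1r, Tyrobp and Spi1 were not analysed here. Of these 5, 4 were lower, with sums of 13.5 RPKM in GFP-depleted EC and 35.9 RPKM in bulk EC, and Lyz2 was listed at 0 in GFP-depleted EC. Of 8 mesenchyme markers 5 had an entry, with 4 lower and 1 higher (15.2 RPKM in GFP-depleted EC and 30.7 RPKM in bulk EC). Of 7 epithelial and neural markers only 3 had an entry, and all 3 were lower (6.79 RPKM in GFP-depleted EC and 23.4 RPKM in bulk EC). Endothelial markers had 2 lower of 10, Egfl7 and Eng, and Eng was at 10.2 RPKM in GFP-depleted EC and 63.0 RPKM in bulk EC. After the GC trend was subtracted, 7 of 7 megakaryocyte, 4 of 7 erythroid and 4 of 5 myeloid markers were lower by more than 1.5 fold. Of 5 mesenchyme markers, 3 were then lower and 1 higher. Epithelial and neural markers then had 3 lower of 3, and endothelial markers 1 lower of 10. The shares of all genes were then 17.7% lower and 14.5% higher. Since the lowest listed mean was 0.50 RPKM, a marker near 0 in GFP-depleted EC had an entry only through its bulk level. Such a marker could only count as lower, and one near 0 in bulk EC only as higher. The marker counts are therefore partly set by that limit. The gate stated for GFP-depleted EC took CD31-positive, CD45-negative cells, and was set against CD45-positive blood cells and CD31-negative mesenchyme. The surface gate of bulk EC is not stated in the methods. The part of blood cells and mesenchyme, of the gate and of the depth gap in the lower levels of the 7 members was not tested.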

How the data were processed

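Gene expression was measured in 1 library of GFP-depleted EC and 1 library of bulk EC. RNA was extracted with Trizol, amplified with a SMART kit and sequenced on an Illumina HiSeq, with alignment to mm9. BWA 0.5.7 and Cuffdiff appear in the submitters' processing notes, with no role given. The authors deposited RPKM values per gene, and neither the counting rule nor the strand setting is given in the sources used here, so antisense or overlapping transcripts cannot be told apart from the gene. A fold column by the authors, bulk EC over GFP-depleted EC, was not used.

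Of 12899 entries, 215 with a repeated symbol were dropped in favor of the entry with the highest mean, leaving 12684 genes. The lowest mean in the table was 0.50 RPKM, so genes below that were not analysed here. As in the methods of the study, a gene was called lower or higher when it reached 0.3 RPKM in 1 library and the plain ratio passed 1.5 fold. Log2 ratios used a pseudocount of 0.3 RPKM, which understates differences of low genes. Calls after a trend was subtracted were made on these log2 ratios.

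Read numbers were recovered from the steps of RPKM in features under 150 bases, of which 97.8% of 369 in GFP-depleted EC against 93.9% of 360 in bulk EC lay within 0.15 of a whole multiple, where chance gives 30%. Only 42.7% of low single-exon genes in GFP-depleted EC against 38.2% in bulk EC came out as whole reads, so read numbers are approximate. GC content, introns and exon lengths came from GENCODE M1 (mm9), which matched 12341 identifiers, and promoter windows from RefSeq (GRCm38.p6). The GC trend was a line through medians of 50 bins of genes of at least 1 RPKM, tested on simulated data. Python 3.11.15, numpy 2.4.6, pandas 2.3.3, scipy 1.17.1 and matplotlib 3.10.9 were used.

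The members and gene lists were chosen with earlier results of these data known. All members were named, and of each other list up to 3 genes with the largest log2 ratio in size, of at least 1 RPKM, could be named. Pecam1 was named for the gate, and Hspe1, Gapdh, Ppia and Actb after their values were seen. Nearest listed neighbors of members were selected from the table. Alternatives were another pseudocount, threshold, scaling, trend correction, background and treatment of repeated symbols.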

Additional observations from a re-analysis of the deposited data

How the results depend on the processing

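The count of 7 members lower in GFP-depleted EC was 6 at a 2-fold threshold, where Fos left it, and 6 after the GC trend or the GC and length trends were subtracted, where Jund left it. Of all genes with a GC value, 17.7% were lower and 14.5% higher after the GC trend was subtracted, and 17.6% and 14.3% after both trends were. The count of lower members was 7 with a pseudocount of 1 RPKM, with the median of all genes at 0 and with quantile scaling. It was also 7 with no pseudocount and with repeated symbols summed, but these settings could not change it. The count already used the plain ratio, and summing left the log2 ratio of every member the same. No member was higher by more than 1.5 fold under these alternatives. Subtracting the GC trend moved the median log2 ratio of the members to -0.86, and subtracting the GC and length trends moved it to -0.85. Jun, Junb, Fos, Egr1, Ier2 and Zfp36 were lower by more than 1.5 fold in all 7 alternative log2 ratios. With repeated symbols summed, the ratio only repeated the main one. Junb ran between -4.90 and -3.30, and Jund between -1.43 and -0.36. Quantile scaling gave Klf6 and Btg2 ratios just above 0 (0.03 and 0.08). At a 2-fold threshold, 13.3% of all genes were lower and 6.62% higher. No paired analysis was possible because there was only 1 library for each sorted population. Depth limits Junb most, since about 8 reads set its level in GFP-depleted EC.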
